A study of Mus musculus with 8 samples.

Results

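Expression of 41 genes of the lysosome and of autophagy was examined in mouse bone marrow mesenchymal stem cells (MSCs) that carried either an active form of the small GTPase RhoA or an empty plasmid. The genes were listed by name, with no threshold on their values, and all of their probes on the array were taken. They comprise 9 cathepsins, 11 other lysosomal hydrolases, 10 membrane, carrier and regulator genes and 11 autophagy genes. Probes were named for 40 of the 41 genes, and Npc1 was not analysed here. Of these, 37 genes passed the filter on dim probes and were tested among 8360 genes in all.

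One set of cells was transfected with L63RhoA, a Myc-tagged and constitutively active RhoA, and the control cells with empty vector (EV), with 4 arrays for each. All cells were purchased mouse bone marrow MSCs at passage 6, and the plasmids were delivered by Lipofectamine, so each array reads a culture in which the share of transfected cells is not known. The sample records give RNA extraction at 48 h after transfection, whereas the methods give 3 days. The study's description counts 4 independent experiments, without saying whether the same number in both groups marks the same experiment.

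Lysosomes are acidic organelles in which hydrolases delivered from the Golgi break down proteins, lipids and sugar chains. Autophagy brings cytoplasmic material to them inside double-membraned vesicles, which are built by the Atg proteins and then fuse with the lysosome. Many genes of both systems share a promoter element, named CLEAR, that the transcription factor TFEB binds.

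Mean signal ranged between 320.1 and 349.6 intensity units on the L63RhoA arrays and between 273.7 and 377.4 on the EV arrays. On L63RhoA replicate 1, 12981 probes were detected, and on L63RhoA replicates 2 to 4 12119, 11927 and 11925. The EV arrays had 12546 to 12928, so L63RhoA replicates 2 to 4 lay below every EV array. The array's only Rhoa probe, at 84.8 to 100.6 intensity units, was below detection throughout the 8 arrays, so it gave no check of the transfection. Of the MSC markers, 9 of 11 with a probe were detected, and Lepr and Thy1 were not. Their summed signal was 5129 to 6517 in L63RhoA cells and 4900 to 6253 in EV cells. Macrophages are rich in lysosomes, but only Cd14 and Fcer1g of 12 macrophage and haematopoietic markers were detected, with summed signals of 2021 to 2125 in L63RhoA cells and 1820 to 2134 in EV cells. Among 4 endothelial markers Pecam1 and Cdh5 were not detected, Kdr was on 3 L63RhoA and 2 EV arrays, and Tek was on all 4 L63RhoA arrays and 0 EV arrays. Tek met the filter only through its L63RhoA arrays and was below detection on the EV arrays, so its fold change is not given. The summed endothelial signal was 480 to 520 in L63RhoA cells and 450 to 484 in EV cells. Each sum covers every named probe, detected or not, and so includes background. That is 20 probes for the MSC markers, 19 for the macrophage and haematopoietic markers and 5 for the endothelial markers. The part of other cells in the results was not tested.

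No member passed the test at the threshold used here. With limma and Benjamini-Hochberg adjustment over all 8360 genes, 0 of 37 members rose and 0 fell at an adjusted p under 0.05, where 59 genes (0.706%) of the whole array passed. An unmoderated test of the means, which the study names for its general statistics and not for the arrays, also called 0 members after adjustment. At an unadjusted p under 0.05, limma gave 12 members (32.4%, beside 24.4% of all genes) and that test 11 (29.7%, beside 19.3% of all genes). Of the 12, 10 were lower in L63RhoA cells and 2 higher, where 10.7% of all genes were lower and 13.7% higher by the same rule. The array methods used a false-discovery rate of 20% on permutation p-values, which were not computed here. The genes that the study listed also had a fold change above 2. No member reached that, the largest change being 1.44-fold, for Atg7, lower in L63RhoA cells. At the 20% rate alone, tried after the data were seen, limma called Neu1 and Gabarapl1 as risen (13.1% of all genes rose). It called 10 members as fallen (10.4% of all genes fell), namely Asah1, Atg7, Becn1, Ctsa, Ctsz, Hexa, Lamp2, Lipa, Mcoln1 and Scarb2. In a culture, less RNA per cell and fewer cells that make it cannot be told apart.

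The values leaned low in L63RhoA cells without passing. The mean was lower in 27 of the 37 members (73.0%) and higher in 10, and the median log2 fold change was -0.11, beside 47.8% lower and a median of 0.01 over all genes. The MSC markers leaned the same way, with 7 of 9 lower and a median of -0.14, Nes at -0.26 ± 0.10 without overlap and Cd44 at -0.34 ± 0.14 (log2 fold change, SE), and none of them passed. In the members, the median was -0.11 in the cathepsins, -0.10 in the other hydrolases, -0.20 in the membrane, carrier and regulator genes and -0.11 in the autophagy genes. The arrays of both groups did not overlap for 8 members that were lower in L63RhoA cells, against 4.72% of all genes, and for 3 that were higher, against 5.2% of all genes. The 95% confidence interval lay within a 2-fold change in either direction for each of the 37 members, beside 97.4% of all genes. It lay within a 1.5-fold change for 27 of them (73%), beside 76.2% of all genes, so this precision was not particular to the members.

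**Figure D1:**
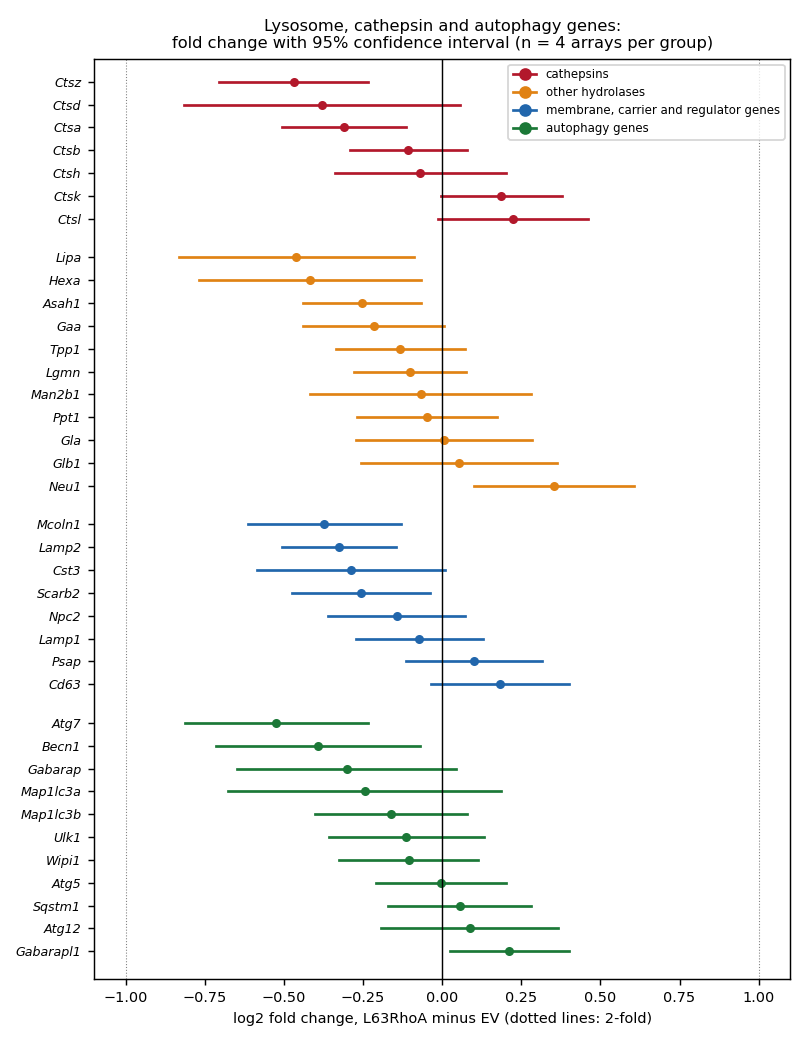
log2 fold change (L63RhoA minus EV, horizontal axis) of each of the 37 tested genes, ordered within the 4 groups of members. Points are limma estimates and bars 95% confidence intervals, with n = 4 arrays per group; all bars lie inside the dotted lines at a 2-fold change, and the estimates run between -0.52 for Atg7 and 0.35 for Neu1.

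The promoters of the members were searched for the CLEAR element. Only exact matches to the letters given here were counted, so a site that differs in any base was missed. The window ran from 250 bases before to 50 bases after each start in the RefSeq table (GRCm38.p6), which holds 34 of the 41 genes. The full element, which is the centre TCACGTGA with a G before it and a C after it, was in 0 of the 34, in 0.834% of the 6836 tested genes with a promoter and in 0.37% of all 27025 promoters. The centre was in 4 of the 34 (11.8%), in 2.37% of the tested genes and in 1.12% of all promoters. The E-box CACGTG, which lies inside the centre, was in 12 of the 34 (35.3%), in 12.3% of the tested genes and in 8.09% of all promoters. Each motif reads the same on both strands, and a match here is a description of letters and not of binding. Shown are the stretches before the start that hold the centre, in capitals, for all 4 genes that have it, and the stretch of Lamp1 with 4 E-boxes in capitals, each 5′ to 3′ on the gene's strand.
Ctsa: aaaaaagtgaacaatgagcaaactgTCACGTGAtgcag
Ctsd: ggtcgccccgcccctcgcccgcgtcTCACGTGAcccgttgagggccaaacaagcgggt
Gla: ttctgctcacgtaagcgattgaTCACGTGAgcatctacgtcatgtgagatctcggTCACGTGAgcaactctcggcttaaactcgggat
Mcoln1: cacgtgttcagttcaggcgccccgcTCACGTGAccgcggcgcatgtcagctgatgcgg
Lamp1: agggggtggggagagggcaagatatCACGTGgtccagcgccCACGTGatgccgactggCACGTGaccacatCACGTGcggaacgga
These lie at chr2:164833735-164833772 on the plus strand for Ctsa, chr7:142387894-142387951 on the minus strand for Ctsd and chrX:134601168-134601255 on the minus strand for Gla. Mcoln1 is shown at chr8:3500448-3500505 and Lamp1 at chr8:13159075-13159160, both on the plus strand. The centre begins 13 bases before the start in Ctsa, with a second copy just inside the transcript, 99 in Ctsd, 228 and 195 in Gla and 46 in Mcoln1. Of the genes with the centre, the log2 fold change was -0.31 for Ctsa, -0.38 for Ctsd, -0.37 for Mcoln1 and 0.00 for Gla, none of which passed the test. Lamp1, with its 4 E-boxes, had a log2 fold change of -0.07.

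The cathepsins are the proteases of the lysosome. Ctsz, a cysteine carboxypeptidase, had log2 intensities of 9.18, 8.98, 8.82 and 9.04 on the L63RhoA arrays, against 9.42, 9.63, 9.32 and 9.53 on the EV arrays. Every L63RhoA array was below every EV array, and the difference was -0.47 ± 0.11 (log2, SE), a 1.38-fold higher mean in EV cells, with limma's adjusted p = 0.078. It had the smallest adjusted p of all 37 members. Its other probe gave -0.36 ± 0.14, in the same direction.

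Ctsa, the carboxypeptidase that protects neuraminidase and beta-galactosidase in one complex, had log2 intensities of 8.66, 8.43, 8.46 and 8.55 in L63RhoA cells and 8.92, 8.76, 8.87 and 8.79 in EV cells. These groups did not overlap either, with a difference of -0.31 ± 0.09 (log2, SE; limma adjusted p = 0.11). Of its 3 dimmer probes, the brightest gave 0.16 ± 0.10 and the others -0.18 ± 0.15 and -0.11 ± 0.15, so they did not all share the sign.

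The collagen-degrading Ctsk leaned the other way. It had 11.64, 11.65, 11.61 and 11.63 on the L63RhoA arrays and 11.47, 11.28, 11.49 and 11.54 on the EV arrays, all log2 intensities. The groups did not overlap, the difference was 0.19 ± 0.09 (log2, SE), and limma's adjusted p was 0.21. Its SD was 0.02 over the L63RhoA arrays and 0.12 over the EV arrays. Ctsl, a cysteine endopeptidase with 1 E-box at 236 bases before its start, had 5.28, 5.21, 5.26 and 5.28 in L63RhoA cells and 5.25, 5.15, 4.94 and 4.80 in EV cells. One EV array lay among the L63RhoA arrays, and the difference of 0.22 ± 0.11 did not pass (limma adjusted p = 0.22). It was 0.069 without further background correction and 0.15 without EV replicate 4.

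The remaining cathepsins tested were Ctsb, Ctsd and Ctsh, with log2 fold changes of -0.11, -0.38 and -0.07 and limma adjusted p of 0.44, 0.25 and 0.75. Ctsd, the aspartic protease of the group, was detected on 3 of 4 L63RhoA arrays and all 4 EV arrays, and its SD was 0.44 in L63RhoA cells and 0.20 in EV cells. Its log2 fold change was -0.12 without further background correction and -0.22 without L63RhoA replicate 4. Ctsf and Ctss, a cysteine protease known from antigen-presenting cells, were each detected on 1 L63RhoA array and 1 EV array and were not tested.

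**Figure D2:**
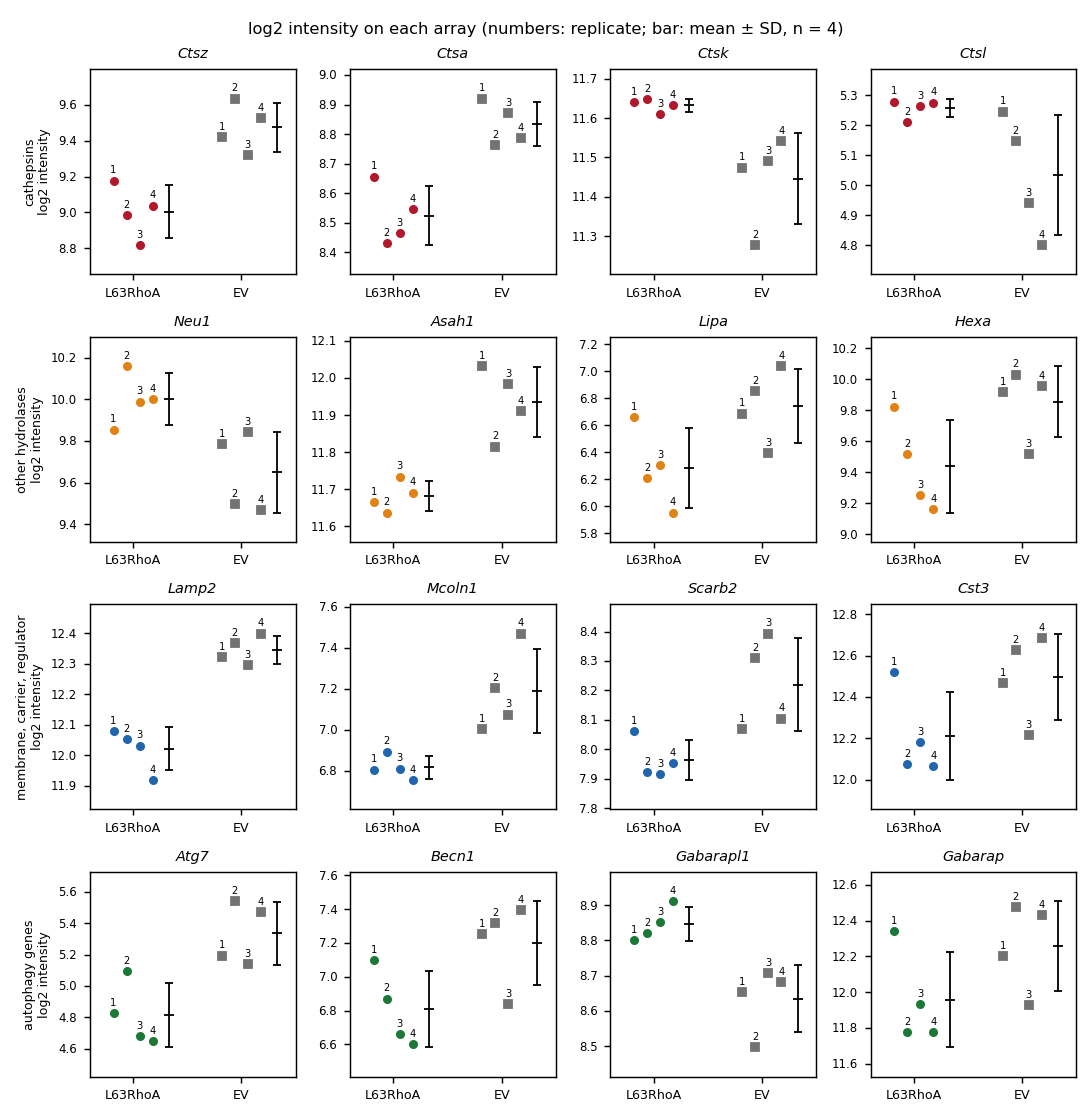
log2 intensity (vertical axis, a scale of its own in each panel) on each array for the 4 genes of each group with the smallest p, with L63RhoA arrays as circles on the left and EV arrays as squares on the right. Digits are replicate numbers and bars the mean ± SD of 4 arrays; Ctsz, Ctsa, Asah1, Lamp2, Mcoln1, Scarb2 and Atg7 lie wholly lower in L63RhoA cells, and Ctsk, Neu1 and Gabarapl1 wholly higher.

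Among the other hydrolases the sialidase gene Neu1 stood on the high side. It had log2 intensities of 9.86, 10.16, 9.99 and 10.00 in L63RhoA cells, against 9.79, 9.50, 9.84 and 9.47 in EV cells. The lowest L63RhoA array was only just above the highest EV array. The difference was 0.35 ± 0.11 (log2, SE), or 1.28-fold, and limma's adjusted p was 0.13.

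Asah1, the acid ceramidase, lay on the low side, with log2 intensities of 11.67, 11.64, 11.73 and 11.69 on L63RhoA arrays and 12.03, 11.82, 11.98 and 11.91 on EV arrays. These did not overlap, with a difference of -0.25 ± 0.08 (log2, SE; limma adjusted p = 0.13). A dimmer probe of the same gene gave -0.02 ± 0.11, and its dimmest probe was detected nowhere.

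Lipa, which splits cholesteryl esters, and Hexa, the alpha subunit of beta-hexosaminidase, had larger differences and wider spread. Lipa had 6.66, 6.21, 6.31 and 5.95 in L63RhoA cells and 6.69, 6.86, 6.40 and 7.04 in EV cells, as log2 intensities. Hexa had 9.82, 9.52, 9.25 and 9.16 in L63RhoA cells and 9.92, 10.03, 9.52 and 9.96 in EV cells. In both genes L63RhoA replicate 1 lay above EV replicate 3, so the groups overlapped through those 2 arrays. The log2 differences were -0.46 ± 0.17 for Lipa and -0.42 ± 0.16 for Hexa (SE), with limma adjusted p of 0.15 and 0.16. Without further background correction Lipa was at -0.25.

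The other 7 hydrolases had log2 fold changes between -0.22 and 0.05, and all of their groups overlapped. The lowest was Gaa, the acid alpha-glucosidase, at -0.22 ± 0.10 (SE; limma adjusted p = 0.21). Tpp1 and Lgmn, both peptidases, had values of -0.13 and -0.10, and Man2b1 and Ppt1 of -0.07 and -0.05. Gla and Glb1, the alpha- and beta-galactosidases, were at 0.00 and 0.05.

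Among the membrane and carrier genes, the probes of Lamp2 differed. Lamp2, a major protein of the lysosomal membrane, is made as splice forms that differ in the tail, and its 4 probes are annotated to 2 RefSeq transcripts. The brightest had log2 intensities of 12.08, 12.05, 12.03 and 11.92 on the L63RhoA arrays, against 12.32, 12.37, 12.30 and 12.40 on the EV arrays. The groups were well apart, with a difference of -0.33 ± 0.08 (log2, SE; limma adjusted p = 0.087). The other probe of that transcript gave -0.31 ± 0.10, also without overlap. Both probes of the other transcript gave values near 0, at 0.01 ± 0.09 and 0.00 ± 0.09, with overlapping arrays. The difference between the transcripts was not tested.

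**Figure D3:**
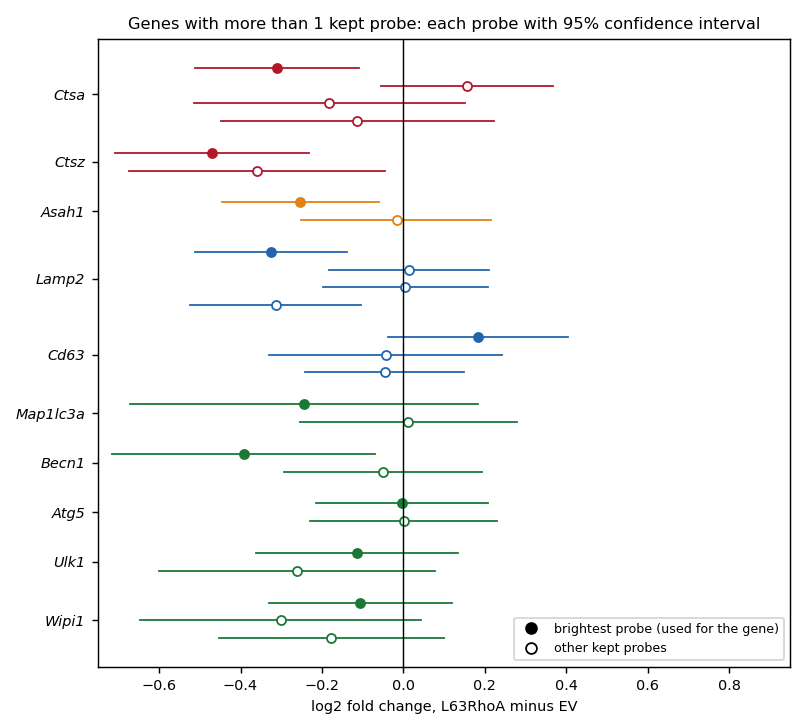
log2 fold change (L63RhoA minus EV, horizontal axis) of every kept probe of the 10 genes with more than 1, with 95% confidence intervals from limma over 4 arrays per group. Filled points are the brightest probe, which stands for the gene, and open points the others; the Lamp2 probes fall into a pair near -0.32 and a pair near 0, while both Ctsz probes lie below 0.

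Mcoln1, a calcium-releasing channel of the lysosome, had log2 intensities of 6.81, 6.89, 6.81 and 6.75 in L63RhoA cells and 7.003, 7.20, 7.07 and 7.47 in EV cells. No arrays overlapped. The difference was -0.37 ± 0.11 (log2, SE; limma adjusted p = 0.11), and the EV arrays spread more, with an SD of 0.06 in L63RhoA cells and 0.21 in EV cells. Without further background correction the difference was -0.23.

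Scarb2, the receptor that carries glucocerebrosidase to the lysosome, had 8.06, 7.92, 7.92 and 7.95 in L63RhoA cells and 8.07, 8.31, 8.39 and 8.10 in EV cells (log2). The groups met at L63RhoA replicate 1 and EV replicate 1 without overlapping. The difference was -0.26 ± 0.10 (log2, SE; limma adjusted p = 0.16). Cst3, which encodes the secreted cathepsin inhibitor cystatin C, had 12.52, 12.07, 12.18 and 12.07 in L63RhoA cells and 12.47, 12.63, 12.22 and 12.68 in EV cells (log2). L63RhoA replicate 1 lay above 2 EV arrays, and the difference of -0.29 ± 0.13 did not pass (limma adjusted p = 0.22).

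The other members of this group were the tetraspanin Cd63 at 0.18, prosaposin, Psap, at 0.10, Lamp1 at -0.07 and the cholesterol carrier Npc2 at -0.14, all as log2 fold changes. Their limma adjusted p ran between 0.27 for Cd63 and 0.64 for Lamp1. Cd63 had 2 dimmer probes at -0.04 and -0.05. Tfeb itself was not detected by either of its 2 probes on any array and was not tested.

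Among the autophagy genes Atg7, the activating enzyme of the conjugation systems, had the lowest fold change of all members. Its log2 intensities were 4.83, 5.10, 4.68 and 4.65 on L63RhoA arrays and 5.19, 5.54, 5.14 and 5.47 on EV arrays. The groups did not overlap, and the difference was -0.52 ± 0.13 (log2, SE), a 1.44-fold higher mean in EV cells, with limma's adjusted p = 0.087. This probe was dim and was detected on 3 of 4 L63RhoA arrays and on all 4 EV arrays. Without further background correction its log2 fold change was -0.16.

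Becn1, a subunit of the lipid kinase that starts the vesicle, had 7.10, 6.87, 6.66 and 6.60 in L63RhoA cells and 7.25, 7.32, 6.84 and 7.40 in EV cells (log2). EV replicate 3 lay inside the range of the L63RhoA arrays. The difference was -0.39 ± 0.15 (log2, SE; limma adjusted p = 0.15), and its dimmer probe gave -0.05 ± 0.11. Without further background correction the difference was -0.25.

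Gabarap and Gabarapl1 encode related proteins that are coupled to the vesicle membrane, and their means lay on opposite sides of 0. Gabarapl1 had 8.80, 8.82, 8.85 and 8.91 in L63RhoA cells and 8.65, 8.50, 8.71 and 8.68 in EV cells (log2), with no overlap and a difference of 0.21 ± 0.09 (SE; limma adjusted p = 0.17). Gabarap had 12.34, 11.78, 11.93 and 11.78 in L63RhoA cells and 12.20, 12.47, 11.93 and 12.43 in EV cells (log2). Here L63RhoA replicate 1 stood above 2 EV arrays, and the difference was -0.30 ± 0.16 (SE; limma adjusted p = 0.25).

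The 7 remaining autophagy genes had log2 fold changes between -0.24 and 0.09, with overlapping groups and limma adjusted p between 0.37 and 0.99. Map1lc3a and Map1lc3b, of the LC3 family, were at -0.24 ± 0.20 and -0.16 ± 0.11 (SE). Map1lc3a rested on EV replicate 4, without which it was at -0.038. The cargo receptor gene Sqstm1 was at 0.06, the kinase gene Ulk1 at -0.11 and the lipid-binding Wipi1 at -0.11. Atg12 and Atg5, whose products are joined to each other, were at 0.09 and 0.00.

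**Figure D4:**
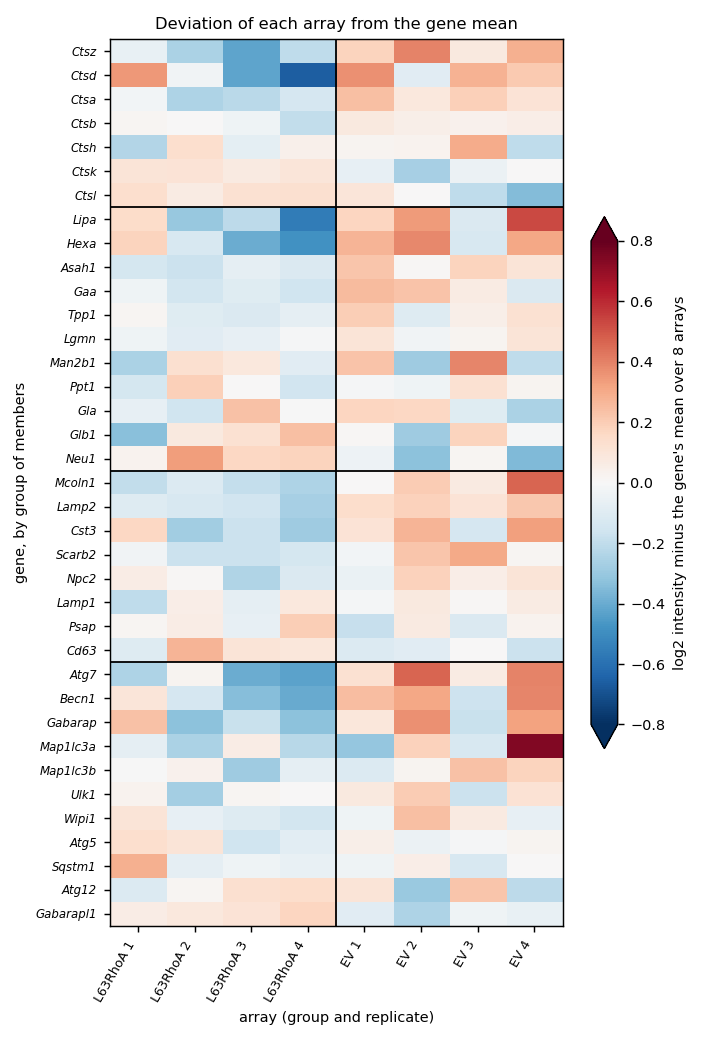
Deviation of each array from the gene's mean over all 8 arrays (colour, log2 units) for the 37 tested genes, in rows by group, with the 4 L63RhoA arrays left of the 4 EV arrays. In Lipa, Hexa, Cst3, Becn1 and Gabarap, L63RhoA replicate 1 has the colour of EV replicates 1, 2 and 4, and EV replicate 3 that of the other L63RhoA arrays.

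Taken by probe, 53 of the members' 58 probes were tested. Of these, 0 rose and 0 fell with limma at an adjusted p under 0.05 over all probes, where 0.64% of all 12349 probes passed. Before adjustment, 12 of the 53 member probes reached p under 0.05 with lower values in L63RhoA cells, where 11.4% of all probes did, and 2 with higher values, where 11.7% did.

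Several members turned on a pair of arrays. Among the 27 members with a lower mean in L63RhoA cells, L63RhoA replicate 1 was the array nearest the EV side in 17 (63%), and EV replicate 3 was the nearest to the L63RhoA side in 10 (37%). Over all genes with a lower mean these shares were 54.6% and 46.5%, so the pattern was not confined to lysosomal genes. The first principal component of the deviations from group means, over all tested genes, held 48.2% of their variance. On it L63RhoA replicate 1 scored -17.37 and EV replicate 3 scored 17.59, with the other arrays between -11.72 and 6.76. Each array was therefore left out in turn, with the same probes tested; leaving out both was chosen after the data were seen, and it widens the gap by construction.

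Without EV replicate 3, limma called Neu1 as risen (6.48% of all genes rose) and 6 members as fallen (4.49% of all genes fell), namely Atg7, Becn1, Ctsz, Hexa, Lamp2 and Lipa. Without L63RhoA replicate 1, it called Neu1 as risen (8.36% of all genes) and 8 members as fallen (6.71% of all genes), the same 6 with Ctsa and Ctsd. Without both arrays, Neu1 and Cd63 rose (17% of all genes) and 11 fell (13.1% of all genes), adding Cst3, Gabarap and Mcoln1 to those 8. Leaving out any other single array gave 0 member calls with limma, while 8 to 11 of the 37 members (21.6% to 29.7%) had an unadjusted p under 0.05, beside 15.4% to 20.7% of all genes in those fits.

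The genes called without both arrays had the same direction with all 8. Since that fit picked the genes and widens the gap by construction, the shared direction is no support for a change. Lipa had a log2 fold change of -0.70 ± 0.13 (SE) without both arrays, against -0.46 ± 0.17 with all 8. Ctsz was at -0.58 ± 0.10, Lamp2 at -0.36 ± 0.09 and Neu1 at 0.47 ± 0.11 without both. Leaving out EV replicates 2 and 4, the dimmest arrays, also chosen after the data were seen, gave 0 member calls and 7 calls among all genes at an adjusted p under 0.05. At an unadjusted p under 0.05 it gave 18.9% of the members and 9.46% of all genes.

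**Figure D5:**
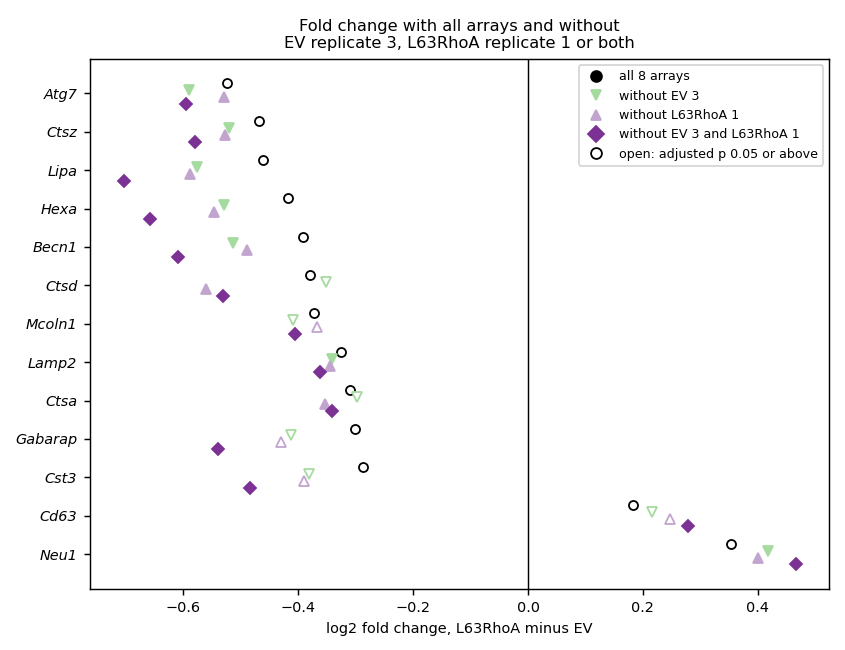
log2 fold change (L63RhoA minus EV, horizontal axis) of the 13 genes that passed in at least 1 of the fits without EV replicate 3, without L63RhoA replicate 1 or without both, with the value from all 8 arrays beside them. Filled symbols mark an adjusted p under 0.05 (limma), and none is filled with all 8 arrays. Each gene has the same direction in its 4 fits. This is no separate support, since the fits share arrays and the genes were picked by passing in them.

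Beyond the members, 111 further genes of the same systems were listed, of which 83 were tested. Of these, 0 rose and 0 fell with limma at an adjusted p under 0.05, while before adjustment 11 were above and 6 below their EV level at p under 0.05, where 13.7% and 10.7% of all genes were. The unmoderated test also called 0 after adjustment. Their median log2 fold change was 0.01, and the mean was lower in L63RhoA cells for 42.2% of them. Of the further lysosomal hydrolases and cofactors 18 were tested, with 14 higher and 4 lower and a median of 0.033. Their direction was thus not that of the member hydrolases. In the other groups of this list the median ran between -0.032 for the autophagy machinery and 0.188 for the inhibitors, of which 2 were tested.

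The nearest to the threshold was Mlst8, a subunit of the nutrient-sensing mTOR kinase complexes, at 8.72 ± 0.15 in L63RhoA cells and 8.15 ± 0.24 in EV cells (log2, SD, n = 4 each; limma adjusted p = 0.079). In the same group Lamtor1, which anchors that signalling on the lysosome, had a log2 fold change of 0.36 ± 0.14 (SE).

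The proton pump that acidifies the lysosome had subunits on both sides of 0, with Atp6v1a at -0.47 ± 0.15 and Atp6v0a2 at 0.25 ± 0.10 (log2 fold change, SE). The cystine exporter Ctns was at 0.57 ± 0.19, and Igf2r, the receptor that sorts hydrolases to the lysosome, at -0.24 ± 0.10. The further hydrolase gene Pla2g15, a lysosomal phospholipase, was at 0.38 ± 0.14, and Cln3, a lysosomal membrane protein, at 0.37 ± 0.18. The inhibitors Serpinb6a and Cstb, or cystatin B, were at 0.25 ± 0.10 and 0.13 ± 0.09.

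In the further autophagy machinery, the lipid-binding Wipi2 was at -0.46 ± 0.13 and the protease gene Atg4c at -0.41 ± 0.13 (log2 fold change, SE). Neither had overlapping arrays, but Atg4c was dim and was detected on only 2 of 4 L63RhoA arrays, against all 4 EV arrays. The limma adjusted p of the genes named from this list ran between 0.079 and 0.39.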

How the data were processed

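Total RNA of 4 L63RhoA and 4 EV samples was hybridised by the authors to Illumina MouseRef-8 v2.0 BeadChips, 1 array per sample. The deposited table holds bead signals as linear intensity and a detection p-value for each probe, extracted with GenomeStudio, whose version is not given in the sources used here. Per the deposited values, the authors' processed table holds log2 values with a median of 6.64 on every array. It equals quantile normalised log2 intensities to within 5e-09, so a variance stabilising transformation is not visible in it, and it was used as an alternative only.

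Here the intensities were background corrected with detection p-values, quantile normalised and taken to log2 with limma's neqc (version 3.58.1, R 4.3.3, offset 16). Of 25697 probes, the 12349 that reached detection at 0.05 in 4 or more arrays entered the fit, and the brightest probe of a gene stood for it. Names came from the platform annotation, brought up to date through Entrez IDs: 23978 probes had 1 gene, 0 had several and 1719 had none. The groups were compared with lmFit and eBayes (two-sided), and a call is a Benjamini-Hochberg adjusted p under 0.05 over 8360 genes. The authors' permutation test with its 20% false-discovery rate was not run. Limma at that rate, without the study's 2-fold cutoff, was added after seeing the data. Values on every array were given for the 4 tested members of each group with the smallest p, and from the further list the 2 genes of each of its groups with the smallest p were named. Members and lists were chosen with earlier results of these data known. The fit was tested on simulated data, with noise drawn separately for each gene and array. Those data held no deviation shared by the genes of an array, so that test does not cover the fit in this respect.

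No pairing was assumed, since no source states one. The deviations of same-numbered arrays had r = -0.10, -0.22, 0.27 and -0.23. These values cannot decide whether a number marks a shared experiment, since arrays of unlike number ranged more widely, between -0.59 and 0.42. Alternatives changed the background correction, scaling, filter, variance model, array weights, block, test and probe rule and left out arrays. The number of arrays limits the precision. Each limma p-value sets the difference between the group means against the moderated spread of arrays within the groups, and covers these 8 arrays only.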

Additional observations from a re-analysis of the deposited data

Results flagged for a closer look

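Of 74 sets of 4 arrays, 1 for each tested member and group, 2 held an array far from the others, where chance gives about 1 in 20. Sqstm1 on L63RhoA replicate 1 was at 13.33 log2 intensity, against 12.97 to 13.01 on the other L63RhoA arrays, a gap of 0.891 of the group's range. Ulk1 on L63RhoA replicate 2 was at 5.98, against 6.26 to 6.29 on the others, a gap of 0.913 of the range. Neither gene passed the test with limma.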

How the results depend on the processing

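Of the 37 tested members, 30 kept their direction in each of up to 19 other settings, and 24 passed in none of them. The counts of calls changed with the setting, and the cause was not tested. The authors' processed values and no further background correction are the same values to within 5e-09, though counted as separate settings, so their equal results are not independent. Each gave 2 members fallen (Ctsz and Lamp2), 1 gene of the further list risen and 2 member probes fallen. Over all genes 61 rose and 55 fell, together 1.39% of them, and the share of all probes called is not given. A variance trend with robust estimation gave 2 members fallen (Ctsz and Lamp2), 1 further gene risen, and 70 genes risen and 69 fallen. Array weights gave 1 member risen and 11 fallen, 14 further genes risen and 7 fallen, and 1208 genes risen and 890 fallen. The methods' t-test, from their general statistics, gave 16 genes risen and 11 fallen.

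With the replicate number as a block, 11 genes rose and 7 fell, with 0 members among them, against 32 and 27 without it; no source says that a number marks a shared experiment. Leaving out 1 array gave 11 to 699 genes risen and 6 to 561 fallen in all. Of the members 0 to 1 rose and 0 to 8 fell, and of the further genes 0 to 6 rose and 0 to 5 fell. Member probes fallen numbered 0 to 9. The high ends came without L63RhoA replicate 1 and, for members risen, also without EV replicate 3. Without L63RhoA replicate 1, 15.1% of all genes were called. The share of all probes called is not given for these fits, so the probe counts show nothing particular to the members. Without both EV replicate 3 and L63RhoA replicate 1, 2 members rose and 11 fell, 16 further genes rose and 7 fell, and 1422 genes rose and 1094 fell in all. Without EV replicates 2 and 4, 5 genes rose and 2 fell. At an adjusted p under 0.2, chosen after seeing the data, 2 members rose and 10 fell, and 1099 genes rose and 872 fell.

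Median scaling gave a median log2 fold change of -0.076 for all members, -0.18 for cathepsins and -0.022 for other hydrolases. Array weights gave -0.16 for all members. The median over all genes tested moved too, to 0.049 with median scaling and 0.013 with array weights, against 0.011 in the main fit. With 1 array left out it was 0.009 to 0.016. Leaving out 1 array gave -0.16 to -0.11 for all members and -0.17 to -0.083 for other hydrolases, and -0.16 to -0.063 for autophagy genes, the last value without EV replicate 2.

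The 7 members that turned were near 0 and passed in no setting. With array weights, the log2 fold change was 0.01 for Ctsh, 0.004 for Ppt1, 0.038 for Man2b1 and -0.015 for Sqstm1. With median scaling it was 0.018 for Ppt1, -0.015 for Gla and 0.08 for Atg5. With 1 array left out it ranged over -0.15 to 0.019 for Ctsh, -0.079 to 0.064 for Gla, -0.033 to 0.17 for Glb1, -0.17 to 0.051 for Man2b1, -0.03 to 0.089 for Sqstm1 and -0.049 to 0.049 for Atg5. Ctsf, Ctss and Tfeb were too dim to be tested.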
